A study of Mus musculus with 12 samples.

Results

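H3K4me3 is histone H3 trimethylated at lysine 4, and the list described here holds every region called for that mark in wild-type mouse back skin: 5464 of the 9474 peaks in the 3 peak lists of the series. All of its peaks are members, with no selection by value. The mark was measured by chromatin immunoprecipitation followed by sequencing in 2 groups of 2 samples, H3K4me3 T0 WT and H3K4me3 6h WT, where WT is written out as Wild type in the labels. All animals were 8 to 10 weeks old and the protocol applied 5 Gy of ionizing radiation, with collection at T0 and at 6 h. The other samples of the 12, in 4 further groups, used an antibody against p53 in WT and K17KO skin and do not enter the list. The labels do not say if 2 samples of 1 group were 2 animals. The libraries, times and control behind the list were not given in those sources either. No value below therefore has a replicate error or belongs to 1 time point.

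The mark is written by the SET1 and MLL methyltransferase complexes and removed by KDM5 demethylases. It sits on the nucleosomes around active and poised transcription start sites, most strongly downstream of the start, and CpG-rich promoters recruit the writers through CXXC domain proteins. In skin it marks promoters of keratinocytes, hair follicle cells, fibroblasts and every other cell type present, so a list from whole back skin is a mixture.

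A peak in this list is an excess over a control that was itself high at gene starts. The fragments at each summit and the background the caller set against them were solved from its deposited fold and −log10 p. At the median peak 148 fragments stood against a background of 90.7, and the median deposited fold enrichment was 1.66. Summits within 1 kb of a protein-coding start had a median background of 122.5, which is 93.5 times the lowest background in the list, 1.31. In 4744 peaks (86.8%) the background was a whole number of control fragments times 1 scaling step of 0.935, so it was read from a control at that place and not from a genome average. The list thus shows where 1 library or pool exceeded another. A gene outside it had no called excess, which says nothing about the level of the mark there.

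The promoters of 6 genes show the range of sequence at starts near peaks. Most of each window lies beside the called peak, which is mainly downstream except at Per1. The peak nearest the printed Per1 start lies upstream of it, and the Cdkn1a peak begins beyond its window. Rnase6 (a ribonuclease of the RNase A family) and Oas3 (an interferon-induced oligoadenylate synthetase) are among the 10 peaks of highest fold at a start, and both promoters are CpG-poor. Dyrk1b, H3c11, Per1 and Cdkn1a were chosen after their values were seen, for the most excess fragments at a start, the highest histone fold, the circadian clock and the p53 response. Each line gives 250 bases before to 50 after an annotated start, 5′ to 3′ on the gene's strand, from RefSeq on build GRCm38.p6. Capitals mark the TATA motif TATAAA, the GC box GGGCGG, the CCAAT box and the E-box CACGTG on either strand, so that a CCAAT box on the other strand reads ATTGG.
Rnase6: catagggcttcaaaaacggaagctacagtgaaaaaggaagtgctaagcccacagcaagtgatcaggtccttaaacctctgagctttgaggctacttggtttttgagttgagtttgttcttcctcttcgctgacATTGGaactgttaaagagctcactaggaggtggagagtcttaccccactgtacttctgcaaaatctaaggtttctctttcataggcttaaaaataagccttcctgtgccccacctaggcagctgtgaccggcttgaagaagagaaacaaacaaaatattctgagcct
Oas3: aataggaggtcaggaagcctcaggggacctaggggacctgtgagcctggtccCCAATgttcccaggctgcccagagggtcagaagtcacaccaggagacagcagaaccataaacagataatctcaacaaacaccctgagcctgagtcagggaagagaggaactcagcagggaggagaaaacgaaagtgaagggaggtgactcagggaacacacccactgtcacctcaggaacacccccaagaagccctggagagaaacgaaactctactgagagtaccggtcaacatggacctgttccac
H3c11: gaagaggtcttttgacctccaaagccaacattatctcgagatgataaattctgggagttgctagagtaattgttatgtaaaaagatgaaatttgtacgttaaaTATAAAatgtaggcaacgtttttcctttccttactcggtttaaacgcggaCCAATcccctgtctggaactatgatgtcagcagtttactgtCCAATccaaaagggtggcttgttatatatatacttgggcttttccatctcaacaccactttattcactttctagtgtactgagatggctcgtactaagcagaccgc
Dyrk1b: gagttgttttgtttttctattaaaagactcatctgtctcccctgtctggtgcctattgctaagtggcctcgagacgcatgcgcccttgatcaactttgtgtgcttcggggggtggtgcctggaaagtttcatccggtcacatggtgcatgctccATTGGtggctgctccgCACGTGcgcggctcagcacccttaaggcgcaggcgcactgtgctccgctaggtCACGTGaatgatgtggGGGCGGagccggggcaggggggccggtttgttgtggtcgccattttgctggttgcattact
Per1: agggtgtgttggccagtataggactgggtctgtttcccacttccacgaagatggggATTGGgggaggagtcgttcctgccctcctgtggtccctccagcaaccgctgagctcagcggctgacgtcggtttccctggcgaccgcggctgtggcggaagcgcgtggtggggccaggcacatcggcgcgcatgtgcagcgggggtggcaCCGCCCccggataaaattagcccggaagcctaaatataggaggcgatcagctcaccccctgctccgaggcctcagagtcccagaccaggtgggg
Cdkn1a: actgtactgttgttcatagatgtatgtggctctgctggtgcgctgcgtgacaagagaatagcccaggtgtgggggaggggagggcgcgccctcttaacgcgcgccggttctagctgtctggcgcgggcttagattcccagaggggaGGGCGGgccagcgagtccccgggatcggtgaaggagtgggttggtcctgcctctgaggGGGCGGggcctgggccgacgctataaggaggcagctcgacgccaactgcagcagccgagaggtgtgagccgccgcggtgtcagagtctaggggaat

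The Rnase6 window (chr14:51128814-51129113, plus strand) held 3 CpG dinucleotides and had a CpG observed to expected ratio of 0.204. Its peak lay at 5.23-fold with 14 fragments over a background of 1.87, and the summit was 172 bp downstream of the start. The Oas3 window (chr5:120777610-120777909, minus strand) also held 3 CpGs, and its peak of 34 fragments over 6.68 lay at 4.56-fold. Both are high in fold and low in fragments. The Dyrk1b window (chr7:28179233-28179532, plus strand) held 17 CpGs and CACGTG at 2 places. Dyrk1b encodes a kinase that holds cells in quiescence, and its peak reached 304 fragments over 147.7, a fold of only 2.05. The H3c11 window (chr13:21783348-21783647, minus strand) carried TATAAA at 1 place and CCAAT at 2, with a GC content of 39.3%. The Per1 window (chr11:69099902-69100201, plus strand) held 21 CpGs, and that of Cdkn1a (chr17:29093519-29093818, plus strand) held 23.

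Peaks gathered at gene starts and lay on the transcribed side. Of the 5464 summits, 2961 (54.2%, exact Clopper-Pearson 95% interval 52.9 to 55.5%) lay within 1 kb of a listed start of a protein-coding gene, 386 (7.06%) at 1 to 5 kb and 1964 (35.9%) farther away. Sequences without any listed start held the remaining 153. Intervals here and below cover counting error only. Within 1 kb, 2526 summits were downstream of the start and 435 upstream, so 85.3% (84.0 to 86.6%) were downstream. The median position was 218 bp downstream, with quartiles at 161 and 290 bp. The fullest 50 bp bin, 200 to 250 bp downstream, held 776 summits. The 50 bp on either side of the start held 31 downstream and 26 upstream, so the start itself was nearly empty of summits.

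**Figure D1:**
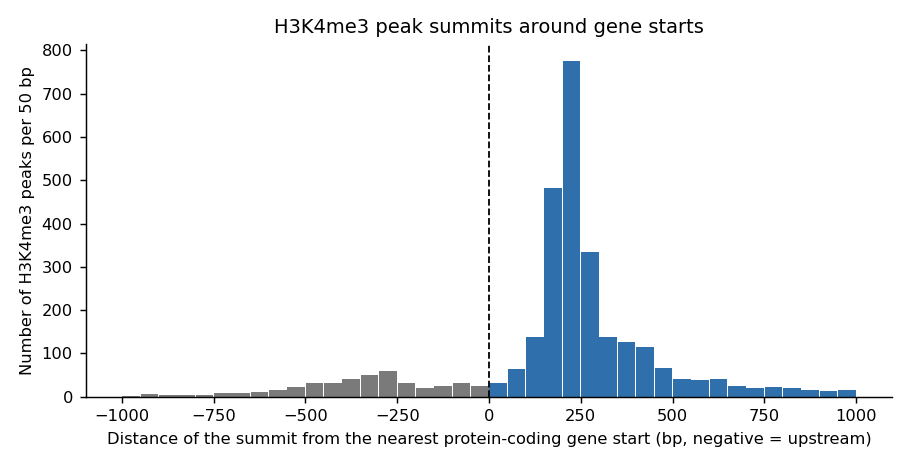
Number of H3K4me3 summits (y axis) per 50 bp of distance from the nearest protein-coding start (x axis, bp, negative upstream), for the 2961 summits within 1 kb. The single tall mode lies 200 to 250 bp downstream with 776 summits, a lower one lies upstream, and few summits fall on the start.

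Fold and depth ran in opposite directions along this axis. Peaks within 1 kb of a start had a median of 189 fragments and a median fold of 1.54. Peaks over 5 kb from any listed start had 49 fragments over a background of 20.6, and a median fold of 2.23. These farther peaks include some near genes without a listed start. By these medians, the peaks within 1 kb of a start were deeper and less enriched than the farther ones. The caller's threshold moves with the background: the smallest −log10 p in the list was 3.003, and the lowest fold that passed was 2.47 in the 640 peaks with a background under 5 but 1.221 in the 2525 peaks with a background of 100 or more. Ranking by fold therefore brings shallow peaks to the top. The smallest −log10 q in the list was 0.229. Of the 5464 peaks, 4901 had a −log10 q of at least 1 and 3961 of at least 2.

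**Figure D2:**
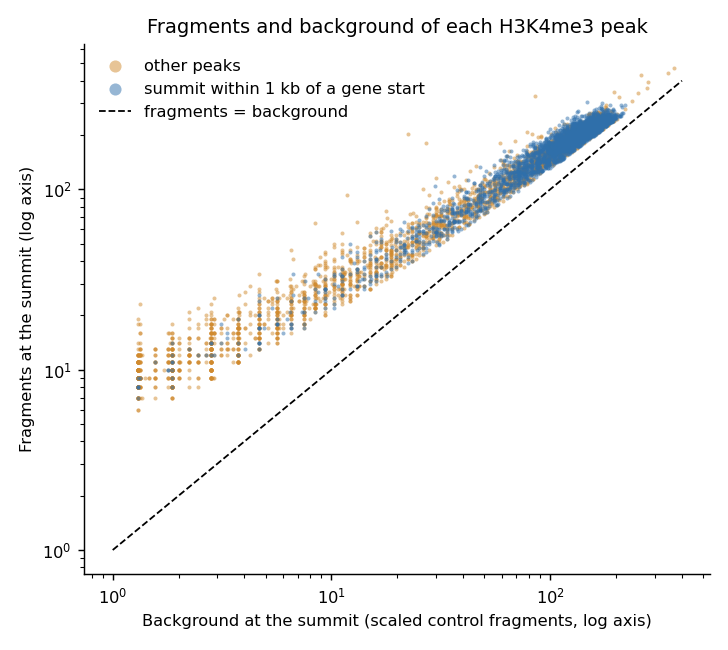
Fragments at the summit (y axis) against the background (x axis) for each peak, both on log scales, coloured by distance from a protein-coding start. Peaks within 1 kb of a start crowd at a median of 189 fragments over 122.5, close to the line of equal values, while those over 5 kb away spread down to a few fragments.

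The peaks were narrow. The median width was 334 bp, with quartiles at 269 and 407 bp. The shortest width, 238 bp, is the fragment length the caller used and was shared by 240 peaks (4.39%). Another 2792 peaks (51.1%) measured 300 bp to under 500 bp, 526 (9.63%) from there to under 1000 bp, and 37 (0.677%) reached 1000 bp or more. Of those 37, 17 had a summit within 1 kb of a start.

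Genes of the stress and glucocorticoid response stood among the 10 widest peaks. The widest, 2733 bp (chrX:140540376-140543108), covered a start of Tsc22d3, the glucocorticoid-induced leucine zipper, at 1.66-fold with 122 fragments over 72.9. Mcam, a cell adhesion molecule of vessels and melanoma, followed with 2097 bp, and a 2070 bp peak lay inside Cep295nl and Timp2. Ddit4, an inhibitor of mTOR induced by stress and glucocorticoids, had 1793 bp at 1.61-fold, and Btg2, an antiproliferative p53 target, had 1634 bp at 1.56-fold. Slc19a2, a thiamine transporter, had 1558 bp with 249 fragments over 145.9. Zbtb16, a zinc finger repressor induced by glucocorticoids, had 1523 bp at 3.04-fold with 181 fragments over 58.9, the highest −log10 q of these genes at 30.7. Other wide peaks lay over Rn18s-rs5, a ribosomal RNA-related locus, with 1704 bp, and over Gm30571, with 1566 bp.

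The peaks with the most fragments were not at protein-coding starts. The 10 deepest held 324 to 470 fragments, and none had its summit within 1 kb of a protein-coding start. The deepest (chr9:3000213-3000653) had 470 fragments over 368.4, a fold of 1.28. The Rn18s-rs5 peak (chr17:39846370-39848073), at 328 fragments over 85.1, had the highest fold of the 10, 3.82. At starts no summit passed 304 fragments. If each position and strand had been allowed 1 fragment, a summit could hold at most 476. The handling of duplicates is not known here, and their part in these depths was not tested.

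A peak lay within 5 kb of a start for 4355 of 21883 protein-coding genes, or 19.9% (19.4 to 20.4%). The 4392 genes without a listed start, placed by either end, gave 21.0%, and the 17491 with one gave 19.6%. This all-gene share of 19.9% is the background for each function and family below, and the median highest fold of those 4355 genes was 1.57. The lists and families were chosen with earlier results of these data known. Their shares are therefore description only, and the intervals do not cover that choice. A count includes any summit within 5 kb, so a peak can belong to a neighbouring gene. Of the peaks, 1365 lay within 5 kb of no gene, 3291 (60.2%) of 1 gene, 704 (12.9%) of 2 and 104 (1.90%) of 3 or more.

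Clock output genes had the highest share of the 29 lists. Of 15 clock output genes, 14 had a peak (93.3%, 68.1 to 99.8%), with a median highest fold of 1.78. Klf9, a glucocorticoid-inducible repressor of keratinocyte proliferation, had 95 fragments over 37.4 at 2.50-fold. Dbp, a PAR-bZIP activator directly driven by the clock, had 127 over 51.0 at 2.46-fold and 3 peaks in all. Lonrf3 lay at 2.36-fold on 72 fragments and Hlf, a relative of Dbp, at 2.21-fold on 80. Of 18 core clock genes 9 had a peak (50%, 26.0 to 74.0%), with a median of 1.75. Among the clock repressors, Per1 had 113 fragments over 41.1 (2.71-fold), Per2 186 over 69.2 (2.66-fold) and Cry2 61 over 22.9 (2.59-fold). The Per2 peak, 243 bp from a gene end, had the highest −log10 q of the core clock genes named, 24.7.

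Glucocorticoid-responsive genes had a peak in 13 of 18 (72.2%, 46.5 to 90.3%), with a median of 2.29, above the all-gene 1.57. Besides Zbtb16, Per1 and Klf9, these held Angptl4, an inhibitor of lipoprotein lipase, at 2.74-fold with 53 fragments, and Pdk4, which shuts pyruvate dehydrogenase, at 2.60-fold with 99 fragments over 37.4. The highest fold was taken over all peaks within 5 kb, and Per1 and Sgk1 had 4 each. Peaks 1 to 5 kb from a start had a median fold of 1.85, against 1.54 within 1 kb. The part of peak number and distance in the median of 2.29 was not tested. Immediate early genes had 15 of 25 (60%), with Btg2 at 2.44-fold, Atf3 at 2.44-fold on only 41 fragments, Fosl2 at 1.98-fold and Myc at 1.91-fold. Several genes stand on more than 1 of these lists, so the shares are not separate evidence.

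Peaks were more frequent at p53 targets than at the regulators of p53, a difference that was not tested. Of 37 p53 target genes 29 had a peak (78.4%, 61.8 to 90.2%), with a median of 1.78. Of 17 p53 family members and regulators 4 did (23.5%, 6.81 to 49.9%). Ephx1, an epoxide hydrolase, led the targets at 4.78-fold with 57 fragments over 11.1. Mdm2, the ubiquitin ligase that degrades p53, followed at 3.40-fold with 61 over 17.2, then Eda2r, a TNF receptor family member, at 3.10-fold on 34 fragments and the death receptor Fas at 2.82-fold on 20. Cdkn1a, the cyclin-dependent kinase inhibitor p21, had 2 peaks. One was 1450 bp wide with its summit 468 bp from a start, at 1.60-fold and 245 fragments over 152.4. The other, 2063 bp from it, was narrower and lay at 2.17-fold with 137 over 62.6. The deeper of the pair is the one with the lower fold. Among the regulators, Mdm2 was again highest at 3.40-fold. Ppm1d, a phosphatase that switches off p53 signalling, lay at 1.91-fold, Chek2 at 1.65-fold and Trp53 itself at 1.41-fold. Mdm2 and Ppm1d stand on both lists, so the lists are not separate. Bcl2 family and death receptor genes had 15 of 29 (51.7%), led by Birc3 at 2.83-fold on 34 fragments, Fas, Hrk at 2.62-fold and Tnfrsf10b at 2.52-fold.

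Cell cycle genes had a peak in 20 of 40 (50%, 33.8 to 66.2%), led by the mitotic kinase Aurka at 2.097-fold, then Cdc25c and Ccnb2 at 1.94-fold each and Ccne2 at 1.92-fold. Heat shock and endoplasmic reticulum chaperones had 14 of 27 (51.9%, 32.0 to 71.3%), with Hspb8 at 2.196-fold, and Hsp90aa1 and Dnajb1 at 1.73-fold each. Oxidative and metal stress genes had 10 of 22 (45.5%), with the metallothionein Mt2 at 2.40-fold and the quinone reductase Nqo1 at 2.28-fold. DNA damage signalling and repair had 13 of 42 (31.0%, 17.6 to 47.1%), led by Mgmt, which removes alkyl groups from guanine, at 2.30-fold with 55 fragments. Enzymes and readers of H3K4 methylation themselves had 9 of 20 (45.0%), with the methyltransferase genes Setd1b at 1.72-fold and Kmt2d at 1.61-fold and the demethylase Kdm5b at 1.60-fold.

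**Figure D3:**
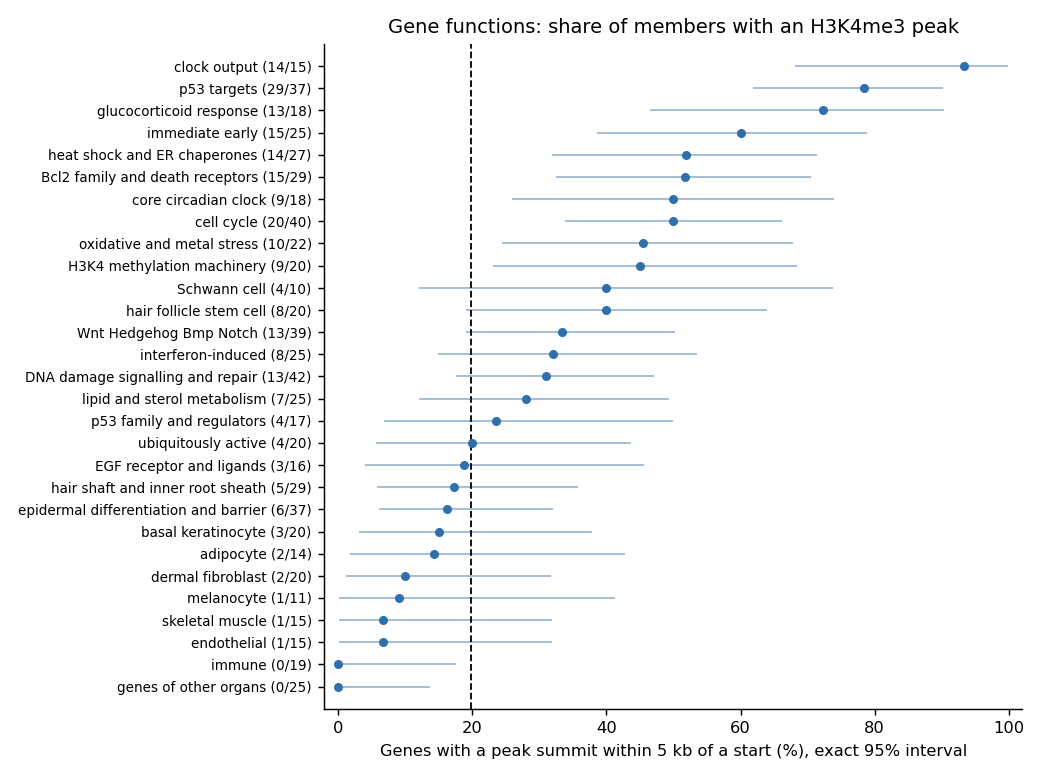
Share of members with a summit within 5 kb (x axis, percent) for the 29 gene lists (y axis, count with a peak over members in brackets), with exact 95% intervals. The dashed line is the all-gene share of 19.9%; clock output, p53 target and glucocorticoid lists lie farthest to the right, and immune and other-organ genes lie at 0.

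Stem cell, signalling, interferon and lipid lists ran from 40.0% down to 18.8%, beside the all-gene 19.9%. Hair follicle stem cell genes had 8 of 20 (40.0%, 19.1 to 64.0%), led by Krt15 at 2.69-fold with 62 fragments and Id2, an inhibitor of bHLH factors, at 2.18-fold. Wnt, Hedgehog, Bmp and Notch genes had 13 of 39 (33.3%), led by the Notch ligand Dll1 at 2.16-fold. Interferon-induced genes had 8 of 25 (32.0%) with a high median of 2.07, but on few fragments: Ifit1 lay at 3.94-fold with 14 and Ifit3 at 3.14-fold with 8. Irf7, the regulator of type I interferon, had 184 over 83.2 at 2.197-fold. Lipid and sterol genes had 7 of 25 (28.0%), and EGF receptor and ligand genes 3 of 16 (18.8%).

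The marker lists of skin cell types were small, and the interval of each keratinocyte and hair shaft share includes the all-gene 19.9%. A gene without a peak had no called excess over the control, so a low share is not a low level of the mark. In bulk skin, fewer cells of a type, less of the mark per cell and a control as high at that place cannot be told apart. Epidermal differentiation and barrier genes had 6 of 37 (16.2%, 6.19 to 32.0%), hair shaft and inner root sheath genes 5 of 29 (17.2%), and basal keratinocyte genes 3 of 20 (15.0%). Krt1, the keratin of suprabasal epidermis, had 3 peaks, as did Krt15, Itgb4 and Klf4 of these lists. Its peak of highest fold, 251 bp from a gene end, had 31 fragments over 5.61 (4.84-fold). Its partner Krt10 had a peak at 1.50-fold, 2978 bp from the start. Within 1 kb the epidermal count was 3 and the hair shaft count 2. Dermal fibroblast genes had 2 of 20 (0 at a −log10 q of at least 2), Col1a2 at 1.83-fold and Col5a1 at 1.35-fold. Endothelial genes had 1 of 15 (Tie1), skeletal muscle 1 of 15 (Actn3), melanocyte 1 of 11 (Pmel), adipocyte 2 of 14 (Car3 and Acsl1) and Schwann cell 4 of 10, led by S100b at 4.88-fold on 13 fragments. None of 19 immune genes had a peak, which allows up to 17.7%, although 5 had one within 20 kb, and none of 25 genes of other organs, which allows up to 13.7%. Low counts do not test the tissue label here, because ubiquitously active genes lay only at the all-gene share, with 4 of 20 (20%, 5.73 to 43.7%). Cytosolic ribosomal proteins, by contrast, had 39 of 84 (46.4%). Actb had its nearest summit at 8.09 kb and Gapdh at 49996 bp, and Krt17, the keratin induced in wounded and stressed epidermis, at 59.2 kb.

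Among 51 gene families, the replication-dependent histones were covered most. These genes encode the core histones made in S phase from intronless genes. A peak lay within 5 kb of 55 of 57 (96.5%, 87.9 to 99.6%) and within 1 kb of 54, from 53 distinct peaks. All 12 H3 and all 12 H4 genes were among the 55, with 16 of 17 H2A and 15 of 16 H2B genes. The chromosome 13 cluster had 45 of 47 and the chromosome 3 cluster 10 of 10. H2ac1 and H2bc1, the pair without a peak, were named after their values were seen. Folds of the peaks within 1 kb ran from 1.37 to 2.43 with a median of 1.77, and fragments from 92 to 269. H3c11 was highest, with 163 fragments over 66.4 (chr13:21783001-21783387), 177 bp from the start printed above. Histone genes are near-identical copies set close together. How reads that match several copies were treated is not known here, so the assignment of a peak to 1 copy is uncertain.

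Families of RNA processing and translation came next. Splicing factors of the Srsf and Hnrnp families had 18 of 32 (56.3%, 37.7 to 73.6%), cytosolic ribosomal proteins 39 of 84 (46.4%, 35.5 to 57.7%), translation initiation factors 26 of 56 (46.4%, 33.0 to 60.3%) and the E2f, Myc and Max network 9 of 20 (45.0%). Their median highest folds were 1.47, 1.42, 1.52 and 1.67, of which the last is above the all-gene 1.57 and the others below it. At the other end, 5 families had no peak. These were 1106 olfactory receptors (up to 0.333% allowed), 353 vomeronasal receptors (up to 1.04%), 56 keratin-associated proteins of the hair shaft (up to 6.38%), 35 late cornified envelope and small proline-rich proteins of the cornified layer (up to 10.0%) and 27 kallikreins (up to 12.8%). The receptors are silent in most tissues, but the next 3 families include genes that skin uses heavily.

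**Figure D4:**
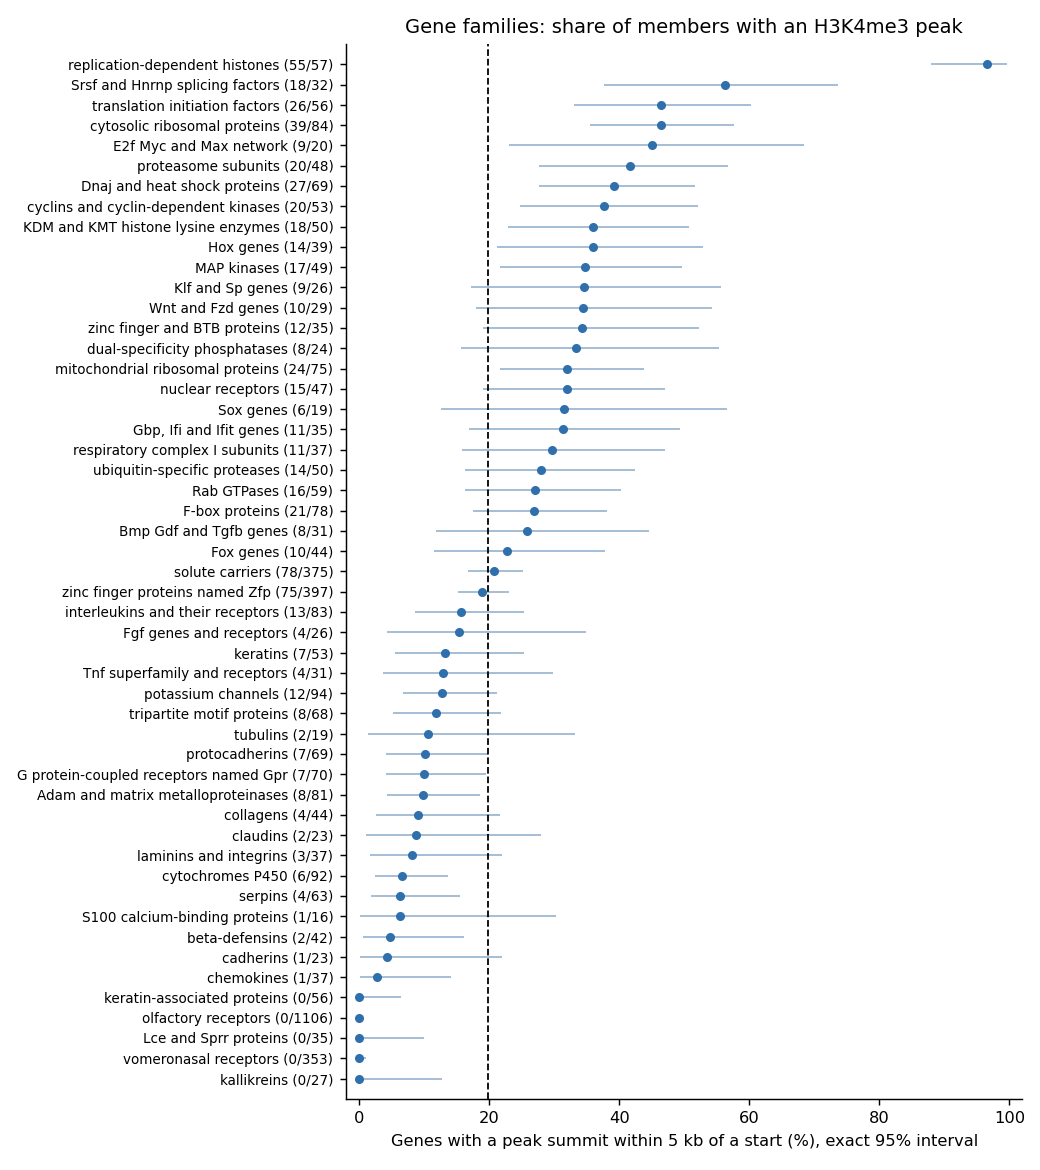
Share of members with a summit within 5 kb (x axis, percent, exact 95% intervals) for the gene families (y axis). Histones lie at 96.5%, far to the right of the all-gene share of 19.9%, and 5 families lie at 0.

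Several peaks at 1 gene were uncommon. Of all protein-coding genes, 214 (0.978%) had 3 or more summits in the body extended by 5 kb on each side, 706 had 2 and 4301 had 1. Gene length differed between these classes without following the count: the median was 15.5 kb with no summit, 23.8 kb with 1, 28.9 kb with 2 and 24.0 kb with 3 or more. Hoxb3, a homeobox gene of a dense cluster, held 6 summits, at folds of 1.50 to 3.25, as did 3 overlapping gene models (Gm37013, Gm38666 and Gm38667) that share the same 6 peaks. Bahcc1, H3c10, Txnip, Foxp1, Mxi1 and Cdkn1b held 5 each, with ties ordered by the number within 5 kb of a start. The other 17 genes with 5 were Pde4d, Rere and 15 protocadherins on chromosome 18. Most of these protocadherins, such as Pcdhga1, had 0 summits within 5 kb of a gene end. Their summits may be shared between overlapping genes, which was not counted, so the 15 are not separate evidence. In the whole protocadherin family 7 of 69 genes (10.1%) had a peak within 5 kb of a start or end. Cdkn1b encodes the cyclin-dependent kinase inhibitor p27. Its summits had 104, 214, 218, 147 and 197 fragments, and none passed 1.63-fold.

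Joined at gaps of up to 3 kb, the peaks formed 4972 units, of which 4552 were single peaks. The other 420 were clusters holding 912 peaks (16.7%): 360 pairs and 60 of 3 or more, with a median span of 1376 bp. The largest by span was at Bahcc1, a BAH domain protein gene, with 5 peaks in 7810 bp. Txnip, the thioredoxin-interacting protein induced by glucose and stress, also had 5, in 4491 bp (chr3:96557227-96561717). Their fragments from upstream to downstream were 130, 215, 150, 153 and 110, and their folds 1.77, 1.63, 1.48, 1.89 and 3.17. The Txnip peaks thus changed rank: the one nearest the start was deepest, and the last, 3558 bp into the gene, had the highest fold.

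Clusters at Ephx1, Per1 and Sgk1 each had 4 peaks. Those of Ephx1 lay in 2395 bp. Their summits lay 269, 635, 1337 and 2110 bp downstream of the start, with 178, 110, 57 and 29 fragments and folds of 2.13, 2.22, 4.78 and 2.90. Fragments fell at each step away from the start while the fold was highest at the third. Per1, a clock repressor also induced by glucocorticoids, had its peaks in 4692 bp, with folds of 1.54, 2.71, 1.47 and 1.97. Sgk1, the serum- and glucocorticoid-induced kinase, had them in 5290 bp at 1.23, 1.55, 1.59 and 1.69-fold. None of its folds passed 1.69, and its deepest peak, 239 fragments over 194.5, had a −log10 q of only 0.270.

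The remaining clusters of 4 were of several kinds. Id2 had 4 peaks in 5220 bp on both sides of its start, and Efna3, an ephrin ligand, 4 in 3659 bp at 1.39 to 2.54-fold. Zfp36l2, an RNA-destabilising zinc finger protein with no listed start, had 4 in 3408 bp at 1.49 to 2.21-fold. The cluster over H2ac7, H2ac8, H2bc7, H2bc8 and H3c4 had 4 peaks in 5402 bp, each 166 to 271 bp downstream of a histone start. At Ptpn14, a phosphatase of the Hippo pathway, 4 peaks lay far from the nearest listed start, at 57192 bp and beyond. They held 17 to 39 fragments at 2.12 to 4.03-fold, the shallowest cluster of the 10.

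High fold at a start went with few fragments. After Rnase6 the highest folds within 1 kb of a start were at Alkal2, a ligand of the kinase Alk, with 26 fragments over 4.67 (4.76-fold), and at Slc28a2, a nucleoside transporter, with 11 over 1.56 (4.69-fold). Gbgt1, a glycosyltransferase gene, had 18 fragments and lay at 4.62-fold. Fezf2, Calm5, Elavl3, Igsf21 and Wipf1 had 9 to 24 fragments at 4.28 to 4.53-fold. Fezf2 and Elavl3 are best known from neurons. Ranked by excess fragments, chosen after the values were seen, the leading genes after Dyrk1b were Nr1h2 (271 over 133.7), the oxysterol receptor LXR beta, Eif1 (269 over 132.8), a start codon selection factor, and the pair Ndor1 and Tmem203 (249 over 119.7). These lay at 2.02 to 2.07-fold, so the rankings share none of the genes named.

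Starts with a peak were richer in CpG, although most CpG-rich starts had none. Of 21262 listed starts, 3463 (16.3%) had a summit within 1 kb. Their 300 bp windows had a median GC content of 63.0% and CpG ratio of 0.817, against 55.0% and 0.464 for the rest. The share with a summit rose across classes of CpG ratio: 1.19% under 0.2 (4695 starts), 4.87%, 14.4%, 23.9%, 29.6% and 33.7% at 1 or more (1730 starts). Median fragments at these summits rose from 43 to 207 and the background from 15.9 to 140.2, while median fold fell by class from 2.31 to 1.50. The background rose with the fragments, so the classes differ in depth as well as in sequence, and the part of depth was not tested.

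**Figure D5:**
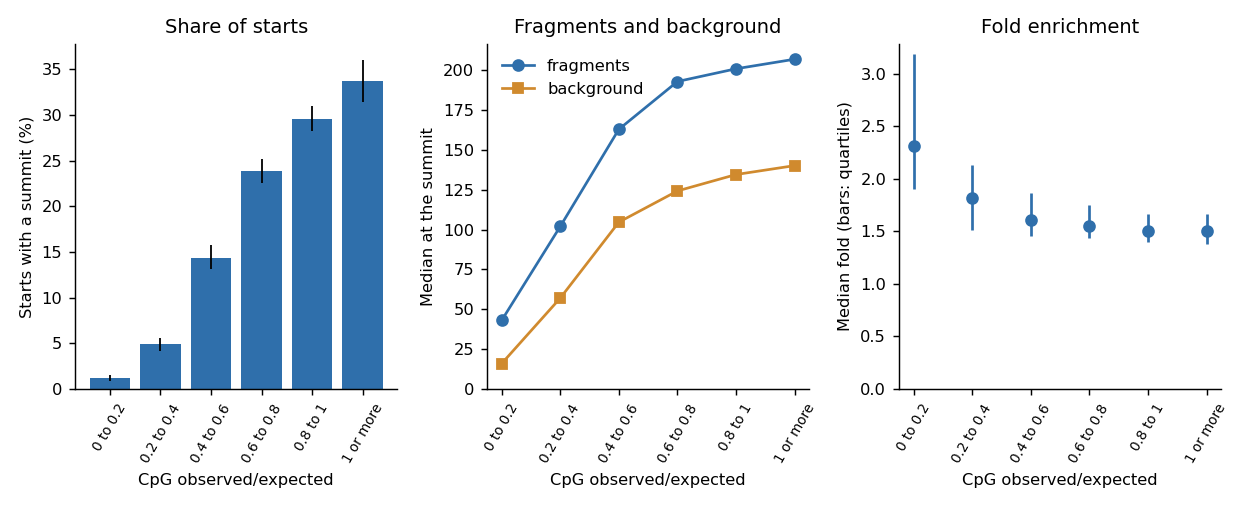
Promoters grouped by CpG observed to expected ratio (x axes): share of starts with a summit within 1 kb and its exact 95% interval (left), median fragments and background at those summits (middle), and median fold with quartiles (right). The share rises from 1.19% to 33.7% while the fold falls from 2.31 to 1.50.

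Motif shares were counted in the same windows. GGGCGG, the core letters of the Sp1 site, was in 71.4% of windows with a summit, 41.3% without and 46.2% of all. TATAAA was in 6.32%, 13.8% and 12.6%, CCAAT in 39.8%, 37.9% and 38.2%, and CACGTG, the E-box read by clock and Myc factors, in 10.97%, 7.23% and 7.84%. In histone windows (53 starts, 49 of them with a summit within 1 kb) TATAAA was in 56.6% and CCAAT in 84.9%, CACGTG in 0 of 53, and the median GC content was 45.0%. Both motifs stand in the H3c11 line above. Windows of the clock lists (32 starts) held CACGTG in 21.9%, and those of the p53 targets (39 starts) in 15.4%. A match is only the letters in the window and says nothing of binding.

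Chromosomes 1 to 19 held 5363 of the peaks, from 149 on chromosome 18 to 448 on chromosome 11. Genes with a peak were most frequent on chromosome 13 (212 of 829, 25.6%, 22.6 to 28.7%) and chromosome 12 (171 of 679, 25.2%, 22.0 to 28.6%). They were least frequent on chromosome 7 (302 of 2030, 14.9%, 13.4 to 16.5%) and chromosome 14 (150 of 850, 17.7%, 15.1 to 20.4%). The share over all autosomes was 20.7%. Chromosome 13 carries the large histone cluster, without which it stood at 21.4% (167 of 782, 18.5 to 24.4%). Chromosome 7 carries 415 genes of the olfactory and vomeronasal families that had no peak. Without those families chromosome 7 stood at 18.7% (16.8 to 20.7%), beside 18.5% on chromosomes 1 and 14. Only chromosomes 1 and 14 then stood lower than chromosome 7. Chromosome 13 without both the histones and the receptors stood at 22.8% (19.8 to 26.0%). The autosomal 20.7% still includes the receptor genes, so the shares without them do not compare with it. No gene of chromosome 18 has a listed start, so its 23.9% rests on either gene end. Median width differed little, from 319 bp on chromosome 19 to 348.5 bp on chromosome 17, and median fold ran from 1.59 on chromosome 18 to 1.74 on chromosome 15.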

How the data were processed

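H3K4me3 chromatin immunoprecipitation was sequenced from wild-type skin in 4 samples. The submitters' processing notes name build mm10, MACS2 (version 2.1.2), Bowtie2 (version 2.2.5) and SAMtools (version 1.7) without saying what each did. No source used here gives the threshold or control. The deposited fold is a ratio of summit fragments plus 1 to background plus 1. Both −log10 columns (p and q), as deposited, come from the peak caller, and the deposited score is 10 times the −log10 p without decimals in 100% of peaks. Fragments and background were solved from fold and p (upper Poisson tail); all peaks were matched within 0.001 in −log10 p. Depth of the libraries is unknown.

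Gene positions and promoter sequences came from RefSeq tables of GRCm38.p6, which shares mm10 coordinates. Of 21883 protein-coding genes 17491 have a strand-aware start; the rest were placed by either end. The 29 gene lists (674 entries, 1 without a match) and 51 families were chosen with earlier results of these data known. Named were the 10 peaks highest in fold at starts, in fragments and in width, the 10 genes and clusters with most peaks, up to 4 members a list by fold, the 5 highest and lowest families, the 2 highest and lowest chromosomes, and Cdkn1a, Mdm2, Krt17, Actb and Gapdh; other genes were chosen after their values were seen, and 4 of the 6 printed promoters fall outside the planned rule. A few genes that the rule selects enter the counts and are not named. Nothing was tested between groups. Python 3.11.15, pandas 2.3.3, scipy 1.17.1 and matplotlib 3.10.9 were used. Simulated data covered only the solving of fragments and background, made with the same formulas, and the finding of starts near planted summits. The other steps were not simulated. Alternatives changed the threshold, the distance, the genes' reference point and the joining gap.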

Additional observations from a re-analysis of the deposited data

How the results depend on the processing

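The share of genes with a peak, 19.9%, depended mainly on the threshold and the distance. It was 18.2% at a −log10 q of at least 1, 15.2% at a −log10 q of at least 2, 7.53% with the upper 50% of peaks by fold, 17.1% at 1 kb, 28.0% at 20 kb and 21.5% with either gene end. The share of summits within 1 kb of a start, 54.2%, was 35.0% in the upper 50% by fold, 57.5% with starts of all genes and 65.7% with starts or, for genes without a start, ends, an alternative chosen after seeing the data. Genes with 3 or more peaks (214) numbered 136 at a −log10 q of at least 2, 84 in the upper 50% by fold and 99 in the body alone. Clusters of 3 or more (60) numbered 38 and 25 under the same 2 filters, 29 at a 1 kb gap and 96 at 10 kb. The median width of 334 bp became 313.5 bp in the upper 50% by fold. Of 25 alternatives 8 stayed within their limits. At a −log10 q of at least 2, 28 of 29 gene lists and 48 of 51 families kept their side of the all-gene share. No paired analysis was possible because the list names no replicate and no groups were compared in it. With no library named, leaving out a replicate was not run.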

Other observations

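Chromosome X held 96 peaks, with a peak at 7.97% of its genes (6.34 to 9.86%) and a median background of 48.2. On chromosome 4, 2 further clusters of 3 peaks, chosen after their values were seen, lay at one interferon locus: one over Gm13272, Gm13276 and Ifnz at 1.50 to 1.94-fold, and one over Gm13275 and Gm13278 at 1.33 to 1.88-fold. Guanylate-binding and interferon-induced Ifi and Ifit genes had a peak in 11 of 35 (31.4%), beside the all-gene share of 19.9%. Potassium channels had one in 12 of 94 (12.8%, 6.77 to 21.2%) and keratins in 7 of 53 (13.2%, 5.48 to 25.3%). Their median highest folds were 3.19, 2.74 and 2.64, in that order, against 1.57 over all genes with a peak. The lowest fold that passed was 2.47 at a background under 5, so shallow peaks can raise such medians. Their part here was not tested.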
